A study of Homo sapiens with 24 samples.

Results

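The comparison described here is that of THP-1 cells given L-ascorbic acid (LAA, vitamin C) together with olaparib against THP-1 cells given olaparib alone. It shows what LAA added when olaparib was already present. By their treatment labels 6 of the 24 libraries belong to it, 3 per group, and the statistical fit used all 12 THP-1 libraries. THP-1 is an established human line of acute myeloid leukemia with monocytic features, and it carries the KMT2A-MLLT3 (MLL-AF9) fusion. The combination group received LAA at 250 µM, dissolved in phosphate-buffered saline, and olaparib at 1 µM, dissolved in dimethyl sulfoxide. The olaparib group received olaparib at 1 µM and served as the control, so both groups carried the inhibitor. The other two THP-1 groups received LAA at 250 µM alone or the mixture of both solvents as vehicle. Exposure lasted 72 h in every group, and all libraries were made from RNA selected for polyA tails. The same 4 treatments were applied to MOLM-13, a second established leukemia line with a KMT2A-MLLT3 fusion, whose libraries are used below only for the same contrast. Each line stands for a single leukemia. Whether the replicates came from separate cultures is not stated, and the p-values therefore reflect the spread among these libraries, which may be technical.

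LAA is a cofactor of iron- and 2-oxoglutarate-dependent dioxygenases. These include the TET enzymes, which oxidize 5-methylcytosine in DNA, and the prolyl hydroxylases that mark hypoxia-inducible factors for degradation. Olaparib inhibits PARP1 and PARP2, the enzymes that build poly-ADP-ribose at DNA breaks and help base excision repair, which also removes oxidized 5-methylcytosine. Interferon-stimulated genes are switched on by STAT and IRF factors at a short promoter sequence, the interferon-stimulated response element. The integrated stress response works through ATF4, which drives genes of amino acid supply, and SREBP factors drive genes of sterol and fatty acid synthesis. The title of the study names the effect of oxidized 5-methylcytosine on the response to such inhibitors as its question.

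Total counts per THP-1 library ran from 18794296 to 24124468, and 15273 to 15960 genes per library had at least 10 counts. Levels are given as CPM (counts per 1000000 counts of a library, with the library size scaled by the TMM method), in the order of replicates 1, 2 and 3. Log2 fold changes are combination against olaparib, ± standard error, with 3 libraries per group, and a gene said to have risen or fallen by a bare number did so on that log2 scale. Adjusted p-values come from edgeR's quasi-likelihood test with Benjamini-Hochberg adjustment over all genes tested, and a gene is called at an adjusted p under 0.05. The summed level of 12 markers of myeloid leukemia cells, among them SPI1, CD33 and LYZ, was 1960 to 2050 CPM in the olaparib libraries and 2070 to 2100 CPM in the combination libraries. Within this sum the members moved apart: 1 of the 12, LYZ, was called higher and 4 were called lower. The group mean of LYZ went from 194 CPM with olaparib to 395 CPM with the combination. Among the 4, PTPRC went from 191 to 150 CPM, ITGAM from 66.8 to 34.9 CPM and LAT2 from 226 to 175 CPM. Markers of other cell types were low. The 12 T and NK cell markers summed to 78.2 to 84.2 CPM with olaparib and 90.2 to 92.1 CPM with the combination, most of it NCAM1, while CD3E was at 0 in both. Of the 5 tested, 1 was called higher, NCAM1 (57.1 to 74 CPM), and 1 lower, GNLY (2.44 to 1.09 CPM). NKG7 went from 17.8 to 13.8 CPM. The 9 B cell markers summed to 13.6 to 18.7 and 19.7 to 22.5 CPM, with CR2, IGHM and BLK at 0 counts in all 12 libraries. Of the 5 B cell markers tested, 1 was called higher, PAX5 (7.18 to 13.3 CPM), and none lower, while CD79B went from 4.65 to 2.93 CPM. The 13 erythroid and megakaryocyte markers reached 11 to 13.9 and 8.51 to 13.6 CPM, with HBB, HBG1, PF4 and PPBP among those at 0, and the 14 epithelial and fibroblast markers 7.7 to 8.96 and 7.86 to 11.7 CPM, with 7 genes at 0. Mitochondrially encoded genes took 8.385% ± 0.941 (SD, n = 3) of counts in the combination libraries, with 9.468% in replicate 1, and 6.811% ± 0.271 in the olaparib libraries. The part of this share in the other results was not tested.

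Adding LAA to olaparib changed 3952 of 16331 genes tested, or 24.2%. Of these, 2001 genes (12.3%) rose and 1951 (11.9%) fell, and the median log2 fold change over all genes tested was -0.0072, with an interquartile range of -0.243 to 0.2168. Most changes were small: 284 genes rose and 237 fell by at least 2-fold, and 87 rose and 67 fell by at least 4-fold. Interferon-stimulated genes, genes of the integrated stress response and its amino acid branch, and MHC class I genes rose. Genes of sterol and fatty acid synthesis, many hypoxia-inducible factor targets and most ribosomal protein genes fell. The shares of all genes called are the background against which each count of list members below is to be read. Without a test, 2914 genes (17.8%) had all combination libraries above all olaparib libraries and 2873 (17.6%) had them all below. Fewer cells of a kind and less RNA per cell cannot be told apart in these bulk libraries.

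The interferon-stimulated genes moved most as a group. Of 50 genes tested, 49 rose and 1 fell, with a median log2 fold change of 1.69, and in all 50 the combination and olaparib libraries did not overlap. IFI27, a mitochondrial protein induced by interferon, was at 29.9, 22.7 and 42.9 CPM with olaparib and at 430.5, 429 and 527 CPM with the combination. That is a log2 fold change of 3.85 ± 0.14 (adjusted p = 2.28e-17), or 14.4-fold. IFI44L (chr1:78619922-78646145, plus strand), an interferon-induced antiviral gene, was at 11.4, 10.6 and 10.8 CPM with olaparib and at 132, 139 and 141 CPM with the combination (log2 fold change 3.66 ± 0.10, adjusted p = 8.98e-20), the smallest adjusted p among the genes named. In both genes no combination library came near the olaparib libraries.

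MX1, a dynamin-like GTPase that blocks virus replication, went from 3.06, 6.79 and 5.03 CPM to 53, 54.4 and 58 CPM (log2 fold change 3.47 ± 0.17, adjusted p = 7.06e-15). ISG15, a ubiquitin-like modifier, was at 101, 76.4 and 112 CPM with olaparib and at 571, 563 and 672 CPM with the combination (log2 fold change 2.64 ± 0.10, adjusted p = 2.96e-17). USP18, the protease that removes ISG15 from proteins and restrains interferon signalling, rose from 13, 11.7 and 13.8 CPM to 92.9, 88.2 and 91.1 CPM (log2 fold change 2.82 ± 0.11). The combination libraries of these genes sat close together, apart from ISG15 and IFI27, where replicate 3 was the highest. OAS3, which makes the 2-5A signal that activates RNase L, rose by 2.33, IFITM1, which hinders virus entry, by 2.41, and IFIT1, which binds foreign RNA caps, by 2.28. The smallest increases in the list were those of IFITM2 (0.31) and DDX60L (0.37). GBP2, a guanylate-binding protein responsive mainly to interferon-gamma, was the single member that fell, from 15.3, 11.3 and 12.2 CPM to 6.41, 5.74 and 3.53 CPM (log2 fold change -1.30 ± 0.18, adjusted p = 6.03e-06). IFITM genes and the IFIT genes resemble their neighbours in sequence, so the share of reads that each took depends on how the authors counted.

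To show what these genes share in sequence, the 250 bases before the RefSeq gene start were searched on both strands for the interferon-stimulated response element, spelled here as GAAA, any 2 bases and GAAA. Of 42 list members with a promoter in the RefSeq table, 29 (69%) held it, against 3.44% of 11520 tested genes with a promoter. IFI44L had 2 matches in the GRCh38.p14 window chr1:78620198-78620447, plus strand. This window is printed because the gene had the smallest adjusted p in the list, and the capitals mark the element:
IFI44L: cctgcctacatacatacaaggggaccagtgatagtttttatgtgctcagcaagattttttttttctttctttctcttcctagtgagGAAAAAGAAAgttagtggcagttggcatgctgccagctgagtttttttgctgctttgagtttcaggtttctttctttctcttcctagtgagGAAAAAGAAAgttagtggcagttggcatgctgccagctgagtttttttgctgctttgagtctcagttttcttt
A match describes the letters only and does not show that a factor binds there.

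Upstream of these genes, receptors, sensors and factors moved less uniformly. Of 19 nucleic acid sensors and adaptors tested, 10 rose and 2 fell, with a median log2 fold change of 0.34. DDX58 (RIG-I, a cytosolic sensor of viral RNA) was at 23.3, 19.3 and 19.3 CPM with olaparib and 72.4, 78.5 and 74.5 CPM with the combination (log2 fold change 1.87 ± 0.10, adjusted p = 3.26e-14). IFIH1 (MDA5), a sensor of long double-stranded RNA, rose from 34.4, 33.5 and 30.5 CPM to 89, 86.3 and 87.3 CPM (log2 fold change 1.42 ± 0.08). AIM2, a sensor of cytosolic DNA, rose by 2.75 from a level below 1 CPM. TMEM173, which encodes STING, the adaptor of cytosolic DNA sensing, fell from 459, 429 and 461 CPM to 319, 291 and 299.6 CPM (log2 fold change -0.57 ± 0.06, adjusted p = 1.46e-08). TBK1, the kinase that acts after STING and MAVS, also fell (-0.44). CGAS (0.04) and MAVS (-0.12) did not pass the test. The median of this list was 0.76 without olaparib replicate 3, and it also reached 0.77 among the settings that kept all combination and olaparib libraries.

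Of 20 genes of interferon receptors, STAT and IRF factors tested, 5 rose and 3 fell, and the median was 0.03. IRF7, which drives interferon genes, was at 49.2, 41.8 and 51.3 CPM with olaparib and 148, 133 and 167 CPM with the combination (log2 fold change 1.65 ± 0.09, adjusted p = 1.06e-13). IRF1 rose by 0.72, STAT2 by 0.56 and IRF3 by 0.30. The 3 genes that fell were JAK1 (-0.35), a kinase of the interferon receptors, IFNGR1 (-0.29), a chain of the interferon-gamma receptor, and IRF8 (-0.22), a myeloid factor. Interferon genes themselves were near the limit of detection and were not tested. IFNL1 had 0 counts over the 3 olaparib libraries and 26 over the 3 combination libraries, 2 to 13 in each, and IFNB1 had 1 and 6.

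MHC class I genes and the proteins that load peptide onto them rose in 14 of 18 cases and none fell, with a median log2 fold change of 0.38. TAP1, a subunit of the peptide transporter, was at 86.4, 78.7 and 81.1 CPM with olaparib and 178, 166 and 164 CPM with the combination (log2 fold change 1.05 ± 0.06, adjusted p = 1.07e-12). B2M, the light chain of class I molecules, rose from 1423, 1270 and 1401 CPM to 1921, 1886 and 1971 CPM (log2 fold change 0.50 ± 0.05), and PSMB9, an immunoproteasome subunit, by 0.87. HLA-F rose by 0.95. The HLA genes resemble each other closely, so reads may have been split among them. Of 11 MHC class II genes, 3 rose and 1 fell, and without combination replicate 3 just 1 rose. HLA-DRA, the alpha chain of HLA-DR, went from 13.7, 12.7 and 13.7 CPM to 25.5, 25.6 and 26.9 CPM (log2 fold change 0.96 ± 0.12, adjusted p = 8.55e-07).

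**Figure D1:**
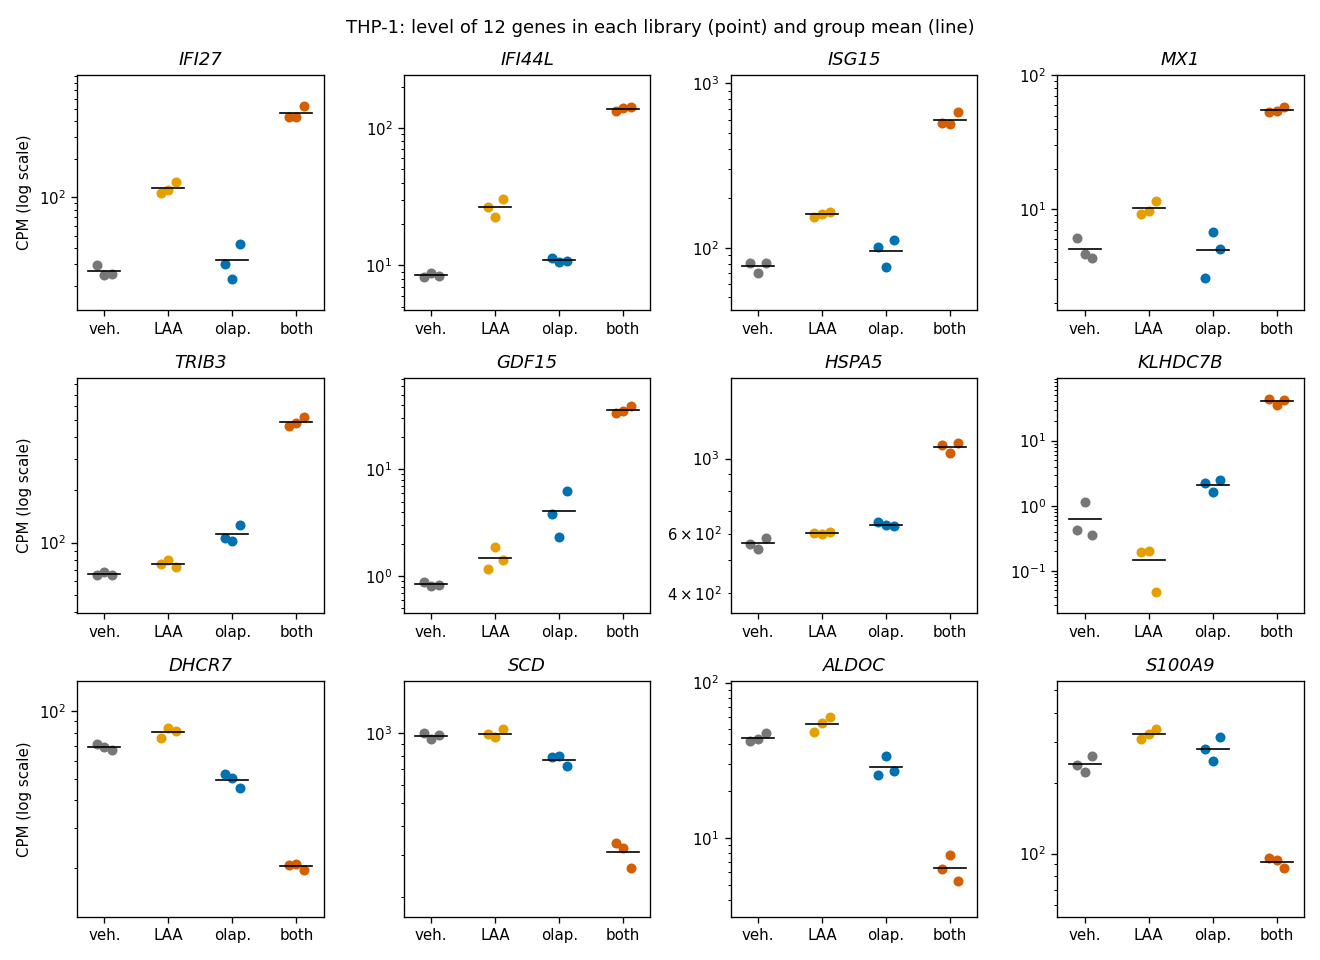
Level of 12 genes in every THP-1 library, in CPM on a log axis, for vehicle, LAA, olaparib and both compounds. Points are libraries and the line is the group mean of 3. In the combination IFI44L sits at 132 to 141 CPM against 10.6 to 11.4 CPM with olaparib, and S100A9 at 86.4 to 95.9 CPM against 249.7 to 315 CPM.

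The integrated stress response was the second group that rose. Of 21 tested effectors linked to ATF4, 16 rose and 2 fell, with a median log2 fold change of 0.97. TRIB3, a pseudokinase and a target of ATF4 and DDIT3, was at 106, 102 and 127 CPM with olaparib and 462, 482 and 523 CPM with the combination (log2 fold change 2.13 ± 0.07, adjusted p = 8.91e-18). GDF15, a secreted stress cytokine, went from 3.79, 2.33 and 6.24 CPM to 33.9, 35.2 and 39.4 CPM (log2 fold change 3.11 ± 0.20, adjusted p = 3.40e-12). All combination libraries of both genes were above all olaparib libraries, and the lowest GDF15 library with olaparib was replicate 2. DDIT3 (CHOP), a stress-induced transcription factor, rose from 15.6, 12.4 and 16.6 CPM to 41.4, 46.3 and 43.5 CPM (log2 fold change 1.55 ± 0.12). ATF4 itself rose by 0.44, ATF3 by 1.90, CHAC1, which degrades glutathione, by 2.17, and SESN2, a leucine sensor, by 1.35. The members that fell were ERO1A (-0.35) and TXNIP (-0.18), and without combination replicate 1 none did.

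Amino acid synthesis and uptake genes, many of them ATF4 targets, rose in 15 of 17 cases and none fell (median 0.49). SLC7A5 and SLC3A2 encode the chains of a leucine transporter. SLC7A5 went from 170.1, 169.7 and 178 CPM to 345, 341 and 368 CPM (log2 fold change 1.02 ± 0.06). SLC3A2 was at 129, 131 and 151 CPM with olaparib and 273, 304 and 328 CPM with the combination (log2 fold change 1.14 ± 0.08, adjusted p = 5.74e-12). PSAT1 and PHGDH, enzymes of serine synthesis, rose by 0.90 and 0.64, and GPT2, a mitochondrial alanine aminotransferase, by 1.04. ASNS, an ATF4 target that makes asparagine, had 18 counts over the olaparib libraries and 49 over the combination libraries in the deposited table, too few to be tested. Cytosolic aminoacyl-tRNA synthetases, which charge tRNA with amino acids, rose in 18 of 20 cases with a median of 0.40. WARS, the tryptophanyl enzyme and also an interferon-induced gene, was at 146, 140.5 and 140.3 CPM with olaparib and 435, 406 and 428 CPM with the combination (log2 fold change 1.57 ± 0.07, adjusted p = 3.47e-16). GARS rose by 0.71 and MARS by 0.64, whereas DARS (-0.45) and QARS (-0.40) fell.

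Chaperones and folding enzymes of the endoplasmic reticulum rose in 15 of 25 cases and 1, EDEM1, fell (median 0.27). HSPA5 (BiP), the main chaperone of that compartment, was at 647, 634 and 630.5 CPM with olaparib and 1099, 1041 and 1113 CPM with the combination (log2 fold change 0.77 ± 0.05, adjusted p = 6.97e-12). XBP1, the transcription factor of the unfolded protein response, rose from 135, 121 and 126 CPM to 216, 214 and 215 CPM (log2 fold change 0.76 ± 0.06). ERN1, which encodes the sensor IRE1 that splices XBP1 messenger RNA, rose by 0.84, and CALR, a lectin chaperone, by 0.54. Among 22 list members with a RefSeq promoter, 7 (31.8%) held the ER stress element, spelled CCAAT, any 9 bases and CCACG, on either strand, against 0.139% of tested genes. The promoter of HSPA5 (GRCh38.p14 chr9:125241344-125241593, minus strand) is printed as the list member with the smallest p-value that holds it, with the element in capitals:
HSPA5: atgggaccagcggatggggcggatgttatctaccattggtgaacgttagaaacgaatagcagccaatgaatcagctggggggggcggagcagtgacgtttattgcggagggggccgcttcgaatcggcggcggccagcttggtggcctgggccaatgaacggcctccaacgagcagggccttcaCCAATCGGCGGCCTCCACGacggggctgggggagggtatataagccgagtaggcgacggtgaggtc
The amino acid response element, written TGATGNAA, was found in 4 of 19 stress response promoters (21.1%) and in 2.37% of tested genes.

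Genes of cholesterol synthesis and uptake moved the other way. Of 25 tested, 22 fell, none rose, and the median log2 fold change was -0.73. DHCR7, the last enzyme of cholesterol synthesis, was at 52.5, 50.2 and 45.4 CPM with olaparib and 20.5, 20.9 and 19.6 CPM with the combination (log2 fold change -1.28 ± 0.08, adjusted p = 2.41e-12). INSIG1, which retains the SREBP precursor in the endoplasmic reticulum and is itself an SREBP target, went from 312, 315 and 291 CPM to 148, 125 and 109 CPM (log2 fold change -1.26 ± 0.08). In both genes every combination library was below every olaparib library, with replicate 3 the lowest. Also lower were HMGCS1 (-1.04), an early enzyme of the pathway, and the SREBP genes SREBF2 and SREBF1 (-0.70 and -0.64). EBP (-0.15), NSDHL (-0.10) and PMVK (0.29) did not pass the test.

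In fatty acid synthesis and desaturation 7 of 11 genes fell and 1, ME1, rose (median -0.26). SCD, which makes oleate from stearate, was at 787, 798 and 722 CPM with olaparib and 339.8, 322 and 264 CPM with the combination (log2 fold change -1.32 ± 0.07, adjusted p = 4.47e-14). FADS2, a desaturase of polyunsaturated fatty acids, went from 238, 238 and 232 CPM to 103, 97 and 83.2 CPM (log2 fold change -1.32 ± 0.07), and FASN, the fatty acid synthase, fell by 0.90. The call of ME1 (0.24) was lost without combination replicate 1 and without olaparib replicate 2. Of 9 liver X receptor genes and their targets of cholesterol efflux 3 fell, MYLIP, ABCA1 and LPCAT3, and 1, APOE, rose. MYLIP, a ubiquitin ligase, had the largest called change, from 24.1, 21.7 and 25.6 CPM to 11.3, 14.4 and 9.07 CPM (log2 fold change -1.03 ± 0.13).

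Targets of hypoxia-inducible factors fell in 22 of 43 cases and rose in 2, with a median log2 fold change of -0.37. EGLN3, a prolyl hydroxylase that is itself a hypoxia target, was low and went from 2.85, 2.58 and 2.60 CPM to 0.421, 0.379 and 0.0527 CPM (log2 fold change -3.18 ± 0.47, adjusted p = 1.04e-05). ALDOC, a glycolytic aldolase, was at 25.3, 33.9 and 26.9 CPM with olaparib and 6.27, 7.73 and 5.27 CPM with the combination (log2 fold change -2.15 ± 0.13, adjusted p = 1.26e-12). BNIP3, a mitophagy receptor, fell from 97.4, 93.3 and 93.3 CPM to 36.4, 49.1 and 40.7 CPM (log2 fold change -1.17 ± 0.08), as did NDRG1 (-1.10). The combination libraries lay below the olaparib libraries in each of these genes. Glucose transporter genes SLC2A3 and SLC2A1 fell, with log2 fold changes of -1.39 and -0.54, as did MIR210HG (-2.48), the host transcript of miR-210. The core glycolytic genes GAPDH (-0.05), TPI1 (-0.07), PKM (0.06) and GPI (-0.04) did not pass the test, nor did HIF1A (0.05), whereas EPAS1, which encodes HIF-2alpha, fell by 0.95. VEGFA, an angiogenic hypoxia target that ATF4 can also drive, rose from 31.5, 35.5 and 36.2 CPM to 60, 67.5 and 64.3 CPM (log2 fold change 0.89 ± 0.09, adjusted p = 3.96e-08). The second increase, ENO1 at 0.17, lost its call in 5 of 13 other settings, 4 of them with combination replicate 1 or 3 or olaparib replicate 1 or 2 left out.

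The hypoxia response element, GACGTG or TACGTG, was written here as NACGTG, with its 5 fixed bases on either strand. This pattern also takes CACGTG and AACGTG, so the shares given here include those forms. Of 37 hypoxia target genes with a RefSeq promoter, 24 (64.9%) held the pattern, against 28.2% of tested genes. Among the 37, 20 were called and 13 of these held it, a like share, so the pattern did not set the called members apart. The promoter of ALDOC (GRCh38.p14 chr17:28576896-28577145, minus strand) held 3 matches to the pattern. Of these, 2 are the same site read on opposite strands, the first stretch of capitals, which is the palindrome CACGTG. Only the second stretch, TACGTG on the other strand, has the form GACGTG or TACGTG. This promoter is shown because ALDOC had the smallest p-value among list members that hold the pattern:
ALDOC: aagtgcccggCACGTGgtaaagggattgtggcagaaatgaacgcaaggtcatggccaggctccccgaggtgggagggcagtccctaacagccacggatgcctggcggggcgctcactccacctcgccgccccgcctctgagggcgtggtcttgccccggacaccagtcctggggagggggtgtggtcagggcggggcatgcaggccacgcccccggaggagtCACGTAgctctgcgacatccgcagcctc

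**Figure D2:**
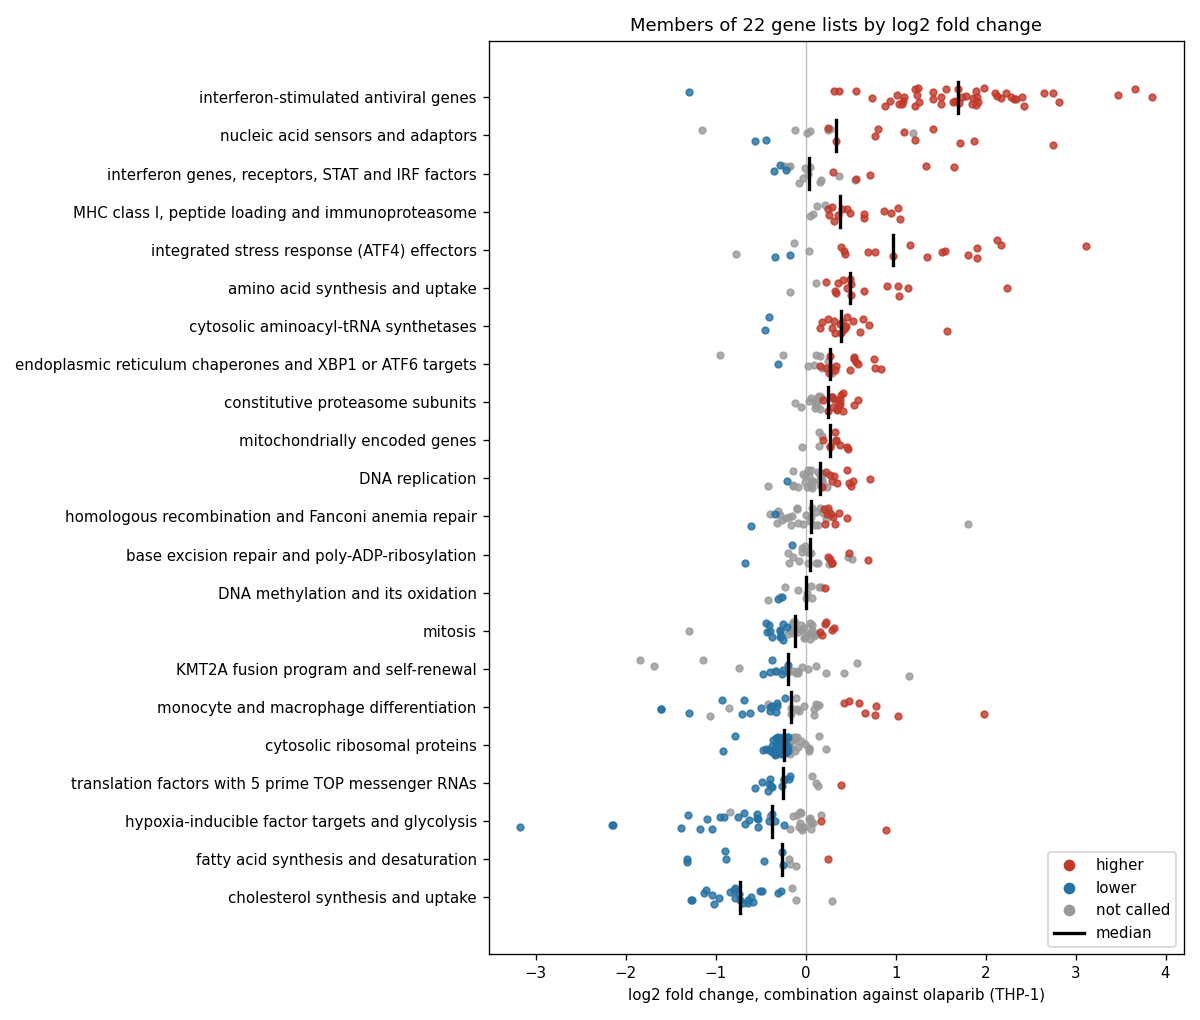
Log2 fold change of combination against olaparib for the tested members of 22 gene lists, 1 point per gene, red where called higher, blue where called lower and grey where not called. The black bar is the list median: 1.69 for interferon-stimulated genes at the top and -0.73 for cholesterol genes at the bottom.

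Translation genes fell by small amounts in many members. Of 59 cytosolic ribosomal protein genes 39 fell and none rose, with a median of -0.24, and 26 fell without olaparib replicate 1. RPLP0, of the ribosomal stalk, was at 2455, 2161 and 2479 CPM with olaparib and 1797, 1823 and 1944 CPM with the combination (log2 fold change -0.35 ± 0.06, adjusted p = 3.42e-05). RPL7 and RPS3A fell, with log2 fold changes of -0.37 and -0.38. Ribosomal protein genes have many processed pseudogenes, and their counts depend on how shared reads were assigned. Of 16 translation factors encoded by messenger RNAs of the same 5′ TOP class, 12 fell and 1, EIF3K, rose (median -0.25). EEF1A1, the factor that brings aminoacyl-tRNA to the ribosome, went from 16270, 15010 and 15690 CPM to 11430, 10870 and 11240 CPM (log2 fold change -0.49 ± 0.04, adjusted p = 1.91e-09), and EIF4B fell by 0.57.

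Mitochondrially encoded genes rose in 9 of 13 cases and none fell (median 0.27). MT-ND4, a subunit of respiratory complex I, was at 7381, 6889 and 7062 CPM with olaparib and 11340, 8733 and 9440 CPM with the combination (log2 fold change 0.47 ± 0.07). Replicate 1 was the highest of the combination libraries, and without it 6 genes rose and the median was 0.18. Nuclear-encoded respiratory chain subunits had a median of 4e-04, with 5 genes higher and 3 lower of 37, near the background shares. Of these subunits 1 was lower without combination replicate 2 and 9 were lower without olaparib replicate 2. Constitutive proteasome subunits rose in 17 of 31 cases and none fell (median 0.25), led by PSMC4 (0.58) and PSMA4 (0.54).

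Genes of DNA methylation and repair, which the study's title concerns, had list medians near 0. Of 13 genes of DNA methylation and its oxidation 1 rose and 2 fell (median 0.0031), counts near the share called among all genes. TET1, TET2 and TET3 did not pass the test, with log2 fold changes of -0.42 ± 0.20, -0.08 ± 0.12 and 0.07 ± 0.08. TET2 was at 22.3, 28.1 and 20.4 CPM with olaparib and 23.4, 24.4 and 18.8 CPM with the combination, so its groups overlapped. TDG, the glycosylase that removes oxidized methylcytosine, had 0.06 ± 0.07. DNMT1, the maintenance methyltransferase, rose by 0.21 (adjusted p = 0.00871), and this call was lost without olaparib replicate 1. DNMT3A fell by 0.27 and lost its call without combination replicate 1, combination replicate 3 or olaparib replicate 2 and with the 6 libraries alone, and OGT (-0.31), a partner of TET enzymes, also fell.

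The targets of olaparib were not called. PARP1 was at 598, 616 and 597 CPM with olaparib and 613, 609 and 619 CPM with the combination (log2 fold change 0.02 ± 0.05, adjusted p = 0.78), and PARP2 had a log2 fold change of -0.08 ± 0.10 (adjusted p = 0.62). Among 24 genes of base excision repair and poly-ADP-ribosylation 6 rose and 2 fell (median 0.04), with 3 to 7 higher and 0 to 1 lower when single libraries were left out, the lowest counts without olaparib replicate 2 and without combination replicate 1 or 3 or olaparib replicate 3. ADPRHL2, a hydrolase that removes ADP-ribose from serine, rose from 29.2, 28.2 and 36.6 CPM to 44.1, 48.9 and 59.2 CPM (log2 fold change 0.69 ± 0.10). NTHL1, a glycosylase for oxidized pyrimidines, rose by 0.48. Of 36 genes of homologous recombination and Fanconi anemia repair, 9 rose and 2 fell (median 0.06), and 5 rose without olaparib replicate 1. BRCA2, a mediator of strand exchange, rose by 0.36 and XRCC2 by 0.46, while ATM, the kinase that signals double-strand breaks, fell from 64.9, 73.6 and 60 CPM to 45.4, 46.1 and 38.6 CPM (log2 fold change -0.61 ± 0.10, adjusted p = 5.26e-05). Among 24 p53 targets 4 rose and 6 fell. BTG2, an antiproliferative gene, fell from 56.1, 62.9 and 61.4 CPM to 30.7, 29.9 and 26.5 CPM (log2 fold change -1.05 ± 0.08), and CDKN1A, which encodes the cell cycle inhibitor p21, did not pass the test (0.15 ± 0.06), though it did with DESeq2.

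Among 38 DNA replication genes 11 rose and 1 fell (median 0.16), and 7 rose without combination replicate 3, olaparib replicate 1 or olaparib replicate 2. MCM7, a subunit of the replicative helicase, was at 237, 246 and 253 CPM with olaparib and 375, 407 and 426 CPM with the combination (log2 fold change 0.71 ± 0.07, adjusted p = 7.94e-09), and ORC1 rose by 0.53. Of 41 mitosis genes 12 fell and 6 rose (median -0.12), with 2 higher without combination replicate 3 or olaparib replicate 2. CENPF and KIF11, of the kinetochore and the spindle, fell, with log2 fold changes of -0.40 and -0.37, and CDC20, an activator of the anaphase-promoting complex, rose by 0.31. In the BCL2 family and among other apoptosis regulators 5 of 24 rose and 4 fell. PMAIP1 (NOXA) rose from 43.8, 37 and 42 CPM to 67.1, 65.5 and 65.4 CPM (log2 fold change 0.69 ± 0.09), and BCL2, an inhibitor of apoptosis, fell from 96.9, 109 and 101 CPM to 78.5, 76.8 and 65.2 CPM (log2 fold change -0.47 ± 0.08, adjusted p = 3.91e-05). The count of apoptosis genes that rose was 3 without combination replicate 3, olaparib replicate 1 or olaparib replicate 3.

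Monocyte genes split in both directions. Of 37 tested, 15 fell and 8 rose, with a median of -0.16. S100A9 and S100A8, the calprotectin subunits of neutrophils and monocytes, fell together. S100A9 (chr1:153357854-153361027, plus strand) was at 279, 249.7 and 315 CPM with olaparib and 95.9, 94 and 86.4 CPM with the combination (log2 fold change -1.61 ± 0.08, adjusted p = 4.94e-15), and S100A8, a nearby gene on the other strand, went from 161, 129.5 and 174 CPM to 55.5, 49.2 and 47.8 CPM (log2 fold change -1.61 ± 0.10). The groups were far apart in both genes. ITGAM (CD11b), an integrin chain that marks mature myeloid cells, fell from 64.6, 71.8 and 64.1 CPM to 39.9, 35.6 and 29.5 CPM (log2 fold change -0.93 ± 0.09, adjusted p = 5.89e-09), as did its partner ITGB2 (-0.71). CD14, the lipopolysaccharide co-receptor, rose from 7.79, 9.07 and 7.75 CPM to 14.2, 11 and 13.7 CPM (log2 fold change 0.66 ± 0.18, adjusted p = 0.00635). LYZ, which encodes lysozyme, rose from 179.9, 195 and 207 CPM to 369.5, 423 and 394 CPM (log2 fold change 1.03 ± 0.07), and CEBPB, a macrophage factor, by 0.76.

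Of 24 genes of the KMT2A fusion program, 7 fell and none rose (median -0.20), and 4 fell without combination replicate 3. MYC was at 191, 173 and 178 CPM with olaparib and 143, 144 and 130.4 CPM with the combination (log2 fold change -0.38 ± 0.06, adjusted p = 5.93e-05). JMJD1C and SATB1 fell, with log2 fold changes of -0.40 and -0.33, and HOXA9 (-0.04), MYB (-0.09) and CDK6 (0.02) did not pass the test. Among 21 NF-kB feedback genes, cytokines and chemokines 5 rose and 5 fell, and 2 fell without olaparib replicate 2. The chemokines CXCL10 and CCL5, also interferon-induced, rose by 2.21 ± 0.46 and 0.53. CXCL10 was low, at 1.25, 0.744 and 0.461 CPM with olaparib and 3.04, 2.845 and 5.38 CPM with the combination. TNF fell from 19.4, 22.2 and 24.5 CPM to 11.7, 10.8 and 11.4 CPM (log2 fold change -0.96 ± 0.13), as did IL1B (-1.0).

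Of 32 antioxidant genes, most of them targets of NRF2, 7 rose and 5 fell (median 0.03), with 2 higher without olaparib replicate 2 and 3 lower without combination replicate 1 or 3. HMOX1, heme oxygenase 1, was at 15.1, 13.4 and 17.2 CPM with olaparib and 23, 23.2 and 16.6 CPM with the combination (log2 fold change 0.46 ± 0.13, adjusted p = 0.0113). Its replicate 3 of the combination lay within the olaparib range, and its call was lost without combination replicate 1 or 2 or olaparib replicate 2. Among those that fell were GPX1 (-0.39), a glutathione peroxidase, and AKR1C2 (-0.55), an aldo-keto reductase that shares long stretches of sequence with AKR1C1 and AKR1C3. In iron handling 5 of 16 genes rose and 4 fell, and 3 rose without combination replicate 1 or 3 or olaparib replicate 1. TFRC, the transferrin receptor, fell from 238, 256 and 231 CPM to 172, 179.5 and 163 CPM (log2 fold change -0.49 ± 0.06, adjusted p = 1.85e-06), as did the iron-responsive regulator ACO1 (-0.56), while SLC39A14, a metal importer, rose by 0.72. Among 29 other dioxygenases and ascorbate transporters 5 rose and 8 fell. KDM5B (-0.51), a histone demethylase, and P4HA1 (-0.63), a collagen prolyl hydroxylase, fell, while PLOD3, a collagen lysyl hydroxylase, rose by 0.49, and 3 rose without olaparib replicate 1. Of 4 germline genes tested 1 fell, MAGEA4 (-0.23), and none rose.

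The largest single changes lay partly outside these lists. KLHDC7B, a kelch-domain protein gene (chr22:50545891-50551023, plus strand), was at 2.23, 1.64 and 2.47 CPM with olaparib and 43.4, 34.7 and 42.6 CPM with the combination (log2 fold change 4.24 ± 0.20, adjusted p = 4.52e-15). ORM1, an acute-phase plasma protein gene (chr9:114323056-114326475, plus strand), went from 1.56, 0.892 and 1.47 CPM to 20.1, 25.4 and 26.4 CPM (log2 fold change 4.19 ± 0.22, adjusted p = 4.22e-14), and it has a near-identical neighbour, ORM2. In both genes the libraries of the groups did not come near each other. SULF2, a sulfatase that trims heparan sulfate at the cell surface (chr20:47656348-47786616, minus strand), fell from 26.2, 35.4 and 27.7 CPM to 2.20, 2.09 and 1.64 CPM (log2 fold change -3.90 ± 0.16, adjusted p = 1.30e-16). TBC1D30, a GTPase-activating protein gene (chr12:64780516-64881032, plus strand), was at 98.4, 98.6 and 91.2 CPM with olaparib and 13.3, 8.58 and 4.06 CPM with the combination (log2 fold change -3.46 ± 0.18, adjusted p = 3.26e-14). Replicate 3 of the combination was the lowest and replicate 1 the highest, all far below olaparib.

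Other large decreases were those of LSP1 (-3.10), a leukocyte actin-binding protein, JAML (-3.55), an adhesion molecule, TMEM45A (-2.54) and ADAMTS4 (-2.49), a proteoglycan protease. SLC6A8, the creatine transporter (chrX:153688099-153696593, plus strand), and PNCK, a kinase gene on the other strand whose span overlaps it (chrX:153669730-153689010, minus strand), fell, with log2 fold changes of -2.18 and -2.27. SLC6A8 was at 193, 204 and 176 CPM with olaparib and 43.3, 43.9 and 39.2 CPM with the combination, and PNCK went from 43.9, 45.6 and 39.4 CPM to 9.59, 8.25 and 8.91 CPM. The library kit does not mark strand, so reads of genes that overlap in opposite directions cannot be told apart. FCGR2B, an inhibitory Fc receptor, its near-identical neighbour FCGR2C and HSPA7, a heat shock pseudogene of the same region, fell, with log2 fold changes of -3.32, -3.59 and -4.46, and how reads were divided among them is uncertain. CDH1, which encodes E-cadherin, had 32 counts over the olaparib libraries, 6 to 16 in each, and 0 over the combination libraries. With a floor of 3 counts set for the combination group and the 32 olaparib counts taken as they are, its level was 10.3-fold lower. The error of the 32 counts is not in this ratio, so it is not a lower limit. CDH1 was too low to be tested with the stricter filter or with the 6 libraries alone, and the floor for a count of 0 covers counting error only.

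The next question was how far the effect of LAA with olaparib present differed from its effect without olaparib. That second contrast, LAA against vehicle, shares no library with the first. LAA alone changed 243 genes (1.49%), 153 higher (0.937%) and 90 lower (0.551%). The difference between the effects was tested as an interaction, which called 1237 genes (7.57%), 659 higher and 578 lower. Of the 3952 genes called with olaparib present, 170 were also called with LAA alone in the same direction, which is 4.3% of the first list and 70% of the second, and 21 were called in opposite directions. The interaction was called for 1166 of the 3952. It uses the same combination and olaparib libraries, so its sign in these genes is no separate evidence.

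Interferon-stimulated genes were called with LAA alone too, 40 of 50 higher and none lower, with a median of 0.65 against 1.69 with olaparib present. The interaction was called higher in 43 and lower in 1, GBP2, and for all genes tested it was called higher in 4.04%. IFI44L stood at 8.16, 8.85 and 8.36 CPM with vehicle and at 26.4, 22.5 and 30.6 CPM with LAA, a log2 fold change of 1.65, and its interaction was 2.01 ± 0.14 (adjusted p = 2.08e-10). The effect of LAA on this gene was thus larger with olaparib present by 2.01 on the log2 scale. HLA-DRA rose with LAA alone by 1.30, and its interaction of -0.34 ± 0.17 was not called (adjusted p = 0.28).

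In the stress response list none rose and 1 fell with LAA alone, while the interaction was called higher in 16 of 21. TRIB3 stood at 65.7, 68.2 and 65.7 CPM with vehicle and 75, 79.5 and 72.8 CPM with LAA (log2 fold change 0.19, adjusted p = 0.27), and its interaction was 1.94 ± 0.10 (adjusted p = 9.53e-13). WARS had 0.28 with LAA alone and an interaction of 1.29 ± 0.09 (adjusted p = 2.13e-10). Cholesterol genes gave 2 higher and none lower with LAA alone, with a median of 0.16, and an interaction that was lower in 22 of 25. Hypoxia targets gave none higher and 1 lower with LAA alone, EPAS1, and an interaction lower in 17 and higher in 1 of 43. For lower calls the interaction background was 3.54%.

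Of the 21 genes with opposite calls 16 rose with LAA alone and fell when LAA was added to olaparib. S100A9 stood at 240, 222 and 261 CPM with vehicle and 309.9, 326 and 341 CPM with LAA (log2 fold change 0.43, adjusted p = 0.000862), against the decrease given above, and its interaction was -2.04 ± 0.11 (adjusted p = 9.53e-13). S100A8 had 0.45 with LAA alone and an interaction of -2.05 ± 0.13. Also in this set were the sterol and acetate genes MSMO1, ACAT2 and ACSS2 and the aldo-keto reductases AKR1C1 and AKR1C2. The 5 genes in the other direction were KLHDC7B, NSMAF, SLC38A1, SDC2 and ITGAL. KLHDC7B stood at 0.42, 1.13 and 0.361 CPM with vehicle and 0.195, 0.205 and 0.0469 CPM with LAA, so the decrease with LAA alone (log2 fold change -2.04, adjusted p = 0.0491) rests on few reads.

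**Figure D3:**
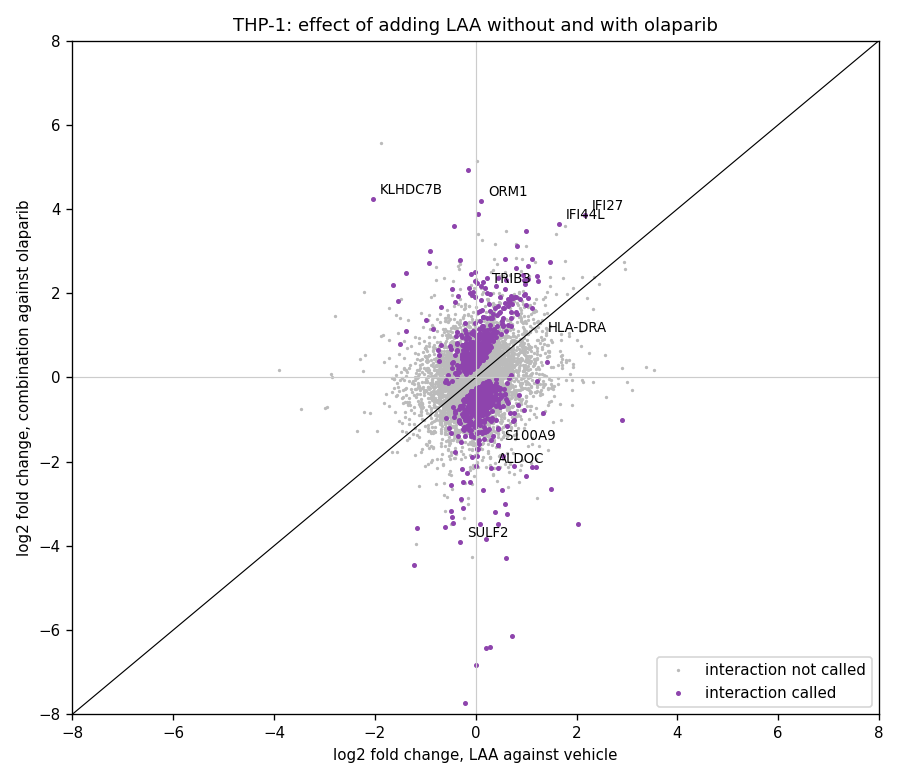
Each point is 1 of 16331 genes, with the log2 fold change of LAA against vehicle on the horizontal axis and that of combination against olaparib on the vertical axis. Purple marks the 1237 genes with a called interaction, and the line is equality. IFI27 lies high on both axes (2.17 and 3.85), and SULF2 near 0 on the first (-0.30) and at -3.90 on the second.

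The same contrast in MOLM-13 called 1208 of 16160 genes (7.48%), 467 higher and 741 lower. With scaling by total counts instead of TMM, 59.3% of its calls were higher instead of 38.7%. Of 3903 THP-1 calls that were tested in MOLM-13, 857 were called there in the same direction, 363 higher and 494 lower, which is 22% of the THP-1 calls and 71.9% of 1192 MOLM-13 calls, and 9 were called in opposite directions. The MOLM-13 libraries differ among treatments in a way that touches this comparison. A set of 11 protein-coding genes, chosen after their values were seen, is described here. Each had no more than 12 counts in total in THP-1 and a mean of at least 1 CPM in the MOLM-13 vehicle libraries. Their vehicle level was thus high by the choice. In MOLM-13 their summed level was 28.98 CPM ± 1.42 (SD, n = 3) in the vehicle group and 4.55 ± 0.154 in the LAA group. It was 16.56 ± 1.05 in the olaparib group and 3.78 ± 0.995 in the combination group. Whether the MOLM-13 libraries hold a mixture of cells that differs between treatments was not tested. The counts shared with MOLM-13 are therefore given as a description and not as the agreement of an independent line.

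Of the groups described for THP-1, several were also called in MOLM-13. There 38 of 49 interferon-stimulated genes rose and 1 fell (median 0.98, background 2.89% higher), 10 of 21 stress response genes rose and 1 fell (median 0.64), 21 of 25 cholesterol genes fell (median -0.58, background 4.59% lower) and 18 of 43 hypoxia targets fell (median -0.28). S100A9 was at 259 ± 23.7 CPM with olaparib and 68 ± 6.27 CPM with the combination in MOLM-13 (log2 fold change -1.93). In MHC class I 1 gene rose and 2 fell of 18 (median 0.03, against 0.38 in THP-1). The medians of mitochondrially encoded genes (-0.10, against 0.27 in THP-1) and of mitosis genes (0.02, against -0.12) had opposite signs in the lines. Few single genes bore this out. In MOLM-13 0 of 13 mitochondrially encoded genes were called, and of 41 mitosis genes 1 rose and 1 fell. The difference between the lines was called in 1 and 0 genes of these lists. Mitochondrial counts were 11.02% in MOLM-13 olaparib replicate 3, against 8.633% and 8.22% in replicates 1 and 2.

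The difference between the lines, THP-1 minus MOLM-13, was called for 180 of 17089 genes (1.05%), 143 higher and 37 lower. By total counts 62.7% of these calls were higher, against 79.4% with TMM. It was called higher in 15 of 50 interferon-stimulated genes (background 0.837%) and lower in none. MX1 was at 1.86 ± 0.139 CPM with olaparib and 2.09 ± 0.435 CPM with the combination in MOLM-13, a log2 fold change of 0.17 against 3.47 in THP-1, and the difference was 3.31 ± 0.30 (adjusted p = 8.92e-08). In MHC class I the difference was called for HLA-C, HLA-E, B2M and TAP1. MFNG, a glycosyltransferase that modifies Notch, rose in THP-1 from 8.10, 7.83 and 8.0 CPM to 16, 16.4 and 19.9 CPM and fell in MOLM-13 from 5.10 ± 0.576 to 1.30 ± 0.482 CPM (difference 3.12 ± 0.30, adjusted p = 1.76e-07). ITGAL, an integrin chain of leukocytes, rose by 0.28 in THP-1 and had -0.67 in MOLM-13 (difference 0.96 ± 0.10). CDKN1A, not called in THP-1, fell by 0.69 in MOLM-13, where it was at 167 ± 4.79 and 104 ± 5.79 CPM (difference 0.85 ± 0.09, adjusted p = 2.97e-07). EPHB1, a receptor kinase, GPC3, a heparan sulfate proteoglycan, and MS4A7, a membrane protein of macrophages, fell in THP-1 (log2 fold changes -0.67, -0.69 and -0.90). In MOLM-13 the values were 0.31, -0.0001 and -0.33. The MOLM-13 side of every difference given here comes from the libraries described above. In these the 11 chosen genes summed to 16.56 CPM with olaparib and 3.78 CPM with the combination. Whether a mixture of cells has a part in the differences between the lines was not tested.

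**Figure D4:**
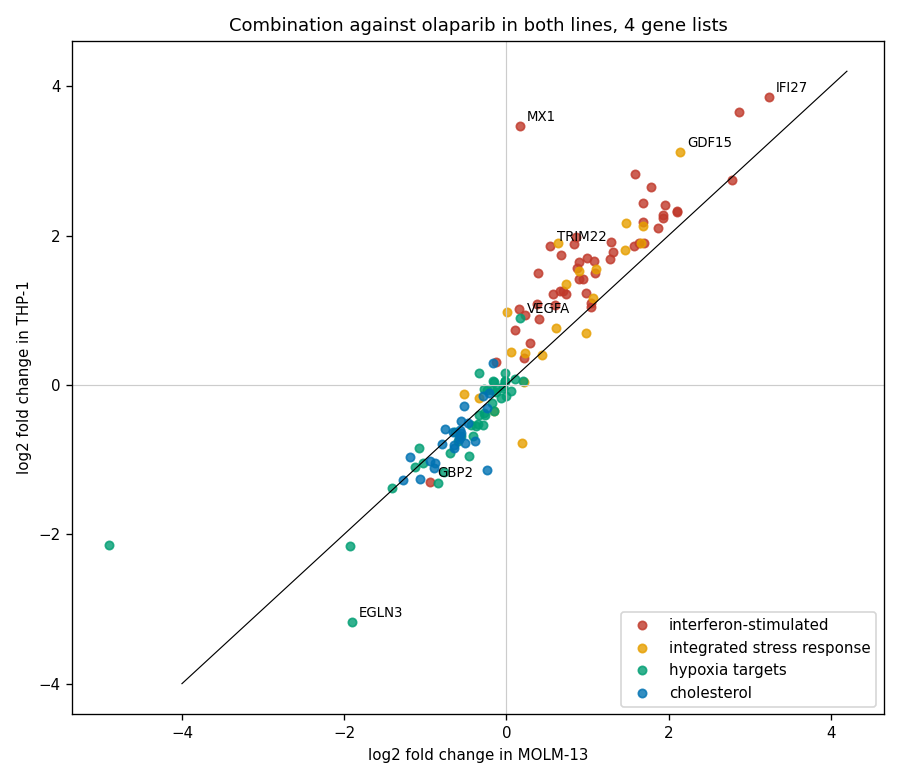
Log2 fold change of combination against olaparib in MOLM-13 (horizontal) and THP-1 (vertical) for members of 4 gene lists, with the line of equality. MX1 stands off the line at 0.17 and 3.47, and GBP2, of the interferon list, lies below 0 in both lines.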

How the data were processed

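PolyA-selected RNA of THP-1 and MOLM-13 was measured in 24 libraries, 3 per treatment and line. The deposited count table holds whole-number read counts per gene, without normalization. The submitters' processing notes name hg38 as the build and list HISAT2, SAMtools and DESeq2. Tool versions, the annotation and how reads were counted, strand setting included, were not given in the sources used here. A deposited FPKM table was not used here. Symbols and coordinates are those of the count table.

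Counts of the 12 THP-1 libraries (18794296 to 24124468 each) were fitted by edgeR 4.0.16 (R 4.3.3). Genes had to pass edgeR's filterByExpr at default settings, with TMM scaling, the quasi-likelihood F test and Benjamini-Hochberg adjustment, and a threshold of 0.05. MOLM-13 was fitted alone, and line differences over all 24 libraries. On simulated counts for 15964 genes, 82 of 100 genes changed 2-fold and 97 of 100 changed 4-fold were recovered. Of 197 calls 18 were false, a larger share than the threshold of 0.05. No other genes were changed there, whereas 24.2% of genes were called in the data, most with changes under 2-fold. The simulation therefore does not give the share of false calls in the data. DESeq2 1.42.0, RLE and total-count scaling, other filters, a fit of 6 libraries, a replicate block and leaving out each library were tried.

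Members and the 38 gene lists were chosen with earlier results of these data known. Named genes were the 10 largest called increases and decreases among protein-coding genes whose groups did not overlap and whose mean log2 CPM reached 1, 3 each among other biotypes, up to 4 called members per list with the smallest adjusted p and up to 2 against its majority, 3 per direction for the interaction and line difference, and a fixed set (among them the TET, DNMT and PARP genes, TDG, CDKN1A, MYC, IRF7, IFIH1, DDIT3, HMOX1, ITGAM, CD14). Other list members were named after their values were seen. Some named genes are not reported here. Lists were described by counts and medians without a set test. Promoters are those of RefSeq (GRCh38.p14), and 11520 of 16331 tested genes matched by symbol. A printed promoter was restricted to the motif's own list after the values were seen.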

Additional observations from a re-analysis of the deposited data

Results flagged for a closer look

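In THP-1 the effect of LAA differed with and without olaparib in 1237 genes by the interaction test. The genes with the smallest adjusted p per direction were IFI44L (interaction 2.01 on the log2 scale), TRIB3 (1.94) and WARS (1.29), where the effect with olaparib was the higher, and S100A9 (-2.04), ADAMTS4 (-2.38) and SULF2 (-3.60), where it was the lower.

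The effect of adding LAA to olaparib differed between the lines in 180 genes by a test of the difference itself. The genes with the smallest adjusted p were MX1 (THP-1 minus MOLM-13 3.31 on the log2 scale), MFNG (3.12) and ITGAL (0.96) on the THP-1 side, and EPHB1 (-0.97), GPC3 (-0.68) and MS4A7 (-0.56) on the other. Whether a mixture of cells in the MOLM-13 libraries has a part in these differences was not tested.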

How the results depend on the processing

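The number of genes called between combination and olaparib was 3952, and it was 3951 with RLE scaling, 3878 with total-count scaling, 4138 with DESeq2, 3805 without a filter, 4017 with a stricter filter and 3406 with the 6 libraries alone. Leaving out single libraries gave 3079 to 3747 calls, 1546 to 1947 higher and 1533 to 1800 lower. Of 184 called genes chosen by the naming rule 21 lost the call in at least 1 of 13 settings, none with a change of sign, and 163 lost it in none in which they were tested. Among the latter CDH1 was tested in 11 of the 13. The 21 included AL139393.2, CD74, CHD1L, CIITA, DNMT1, DNMT3A, ENO1, ERO1A, FANCE, GNLY, HIST2H2BE, HLA-DRB1, HMOX1, LPCAT3, ME1, NEIL1, TXNIP and XRCC1. With total-count scaling the genes called higher numbered 771 in MOLM-13 (467 with TMM) and 79 for the line difference (143 with TMM), and the cause was not tested. The interferon-stimulated response element extended by CT at its end was held by 38.1% of interferon-stimulated promoters and 0.312% of tested genes.

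Replicate numbers are shared by the groups, but same-numbered combination and olaparib libraries deviated together with correlations of 0.012, 0.05 and 0.061, so the numbers were not taken as pairs. Combination replicates 2 and 3, but not 1, correlated best with their own number, at these low values. With a replicate block 3794 genes were called.

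Genes under about 1 CPM, such as interferon genes and CDH1, are limited by depth.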
